A study of Mus musculus with 6 samples.

Results

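The mouse mitochondrial genome encodes 13 proteins of the respiratory chain and the ATP synthase. The 6 of them outside complex I are described here: mt-Cytb of complex III, mt-Co1, mt-Co2 and mt-Co3 of complex IV, and mt-Atp6 and mt-Atp8 of complex V. They were taken by Ensembl identifier from a deposited table of 53647 genes, and each of the 6 had a row. The cells were D2.OR, a mammary carcinoma line of the mouse known for dormant-like growth in 3D culture, and carried a lentiviral scrambled, non-targeting hairpin (shScram, 3 libraries) or a hairpin against Slx4ip (shSLX4IP, 3 libraries). Both groups went through the same puromycin selection for transduced cells and were grown on Cultrex, a basement membrane extract, in 3D culture for 7 days before poly(A) RNA sequencing. The question of the design is how loss of SLX4IP, a partner of the nuclease scaffold SLX4, changes gene expression. The labels name 1 hairpin target and call the replicates biological, without saying whether they were separate cultures or clones. The p-values therefore measure the spread between these libraries, part of which may be technical.

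Complex III passes electrons from ubiquinol to cytochrome c, complex IV passes them on to oxygen, and complex V uses the resulting proton gradient to make ATP. Each is a mixed assembly, with a few core subunits made in the mitochondrion and the rest imported. The mitochondrial messages are cut out of long transcripts that span most of the genome, often at tRNAs that lie between the coding regions, and most then receive a poly(A) tail. Because the genes share these precursors, the level of each message also depends on how it is processed, tailed and degraded.

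The annotated 3' ends of the 6 genes are shown, which need not be the ends of the messages. The libraries were made through the poly(A) tail, which on some mitochondrial messages also completes the stop codon. The end of mt-Atp8 lies inside the message that it shares with mt-Atp6. The last 30 bases of each gene are given below, 5' to 3', on the plus strand of the mitochondrial genome (GRCm38, GENCODE M21 transcripts). Capitals mark the encoded stop codon or the part of it that is encoded.
mt-Cytb: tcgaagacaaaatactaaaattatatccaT
mt-Co1: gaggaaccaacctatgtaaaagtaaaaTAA
mt-Co2: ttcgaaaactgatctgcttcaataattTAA
mt-Co3: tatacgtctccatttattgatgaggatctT
mt-Atp6: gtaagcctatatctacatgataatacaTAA
mt-Atp8: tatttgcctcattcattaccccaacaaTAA
Of the 6, mt-Co1, mt-Co2, mt-Atp6 and mt-Atp8 encode a full TAA, while mt-Cytb and mt-Co3 end in a single T. The last A of mt-Atp6 is also the first base of mt-Co3. Whether the encoded stop bears on the level of a message was not tested.

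The genes of complexes IV and V lie close together, and complex V comes from 1 message with overlapping reading frames. mt-Atp8 spans 7766 to 7969 and mt-Atp6 7927 to 8607, so they share 43 bases, or 21.1% of mt-Atp8 and 6.31% of mt-Atp6. The whole of mt-Atp8 is shown, with the bases shared with mt-Atp6 in capitals. Reads from that stretch belong to both genes.
mt-Atp8: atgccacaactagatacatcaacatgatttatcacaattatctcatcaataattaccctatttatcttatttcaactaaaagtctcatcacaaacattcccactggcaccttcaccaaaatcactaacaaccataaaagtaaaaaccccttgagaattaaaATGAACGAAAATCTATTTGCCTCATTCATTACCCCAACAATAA
The junction of mt-Atp6 with mt-Co3 (8607 to 9390) is 1 base, the capital in the line below.
mt-Atp6/mt-Co3 junction: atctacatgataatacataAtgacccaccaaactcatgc
Elsewhere mt-Co1 (5328 to 6872) shares its last 3 bases, the TAA shown above, with the tRNA gene mt-Ts1 on the other strand. mt-Co2 (7013 to 7696) and mt-Cytb (14145 to 15288) overlap no annotated gene. All 6 genes are single exons on the plus strand.

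Copies of mitochondrial DNA in the nuclear genome bear on these values. Among annotated transcripts, stretches of at least 100 bases and 95% identity were found for mt-Co2, mt-Co3 and mt-Atp6 at 100% identity on chromosome 1 (Gm28661, Gm28437 and Gm10925). For mt-Co1 the copies were Gm29216 at 99.8% over 483 bases and Gm13340 at 97.6% over its whole length of 1545 bases. mt-Cytb and mt-Atp8 had none of that length. Gm10925 matched 678 of the 681 bases of mt-Atp6, so it also holds most of the bases that mt-Atp6 shares with mt-Atp8. Shorter stretches and copies that are not annotated were not searched for. The rows under the identifiers of these copies, and of a further copy of mt-Co2 (Gm13341), were listed at 0 in all 6 libraries, and the sources used here do not say how reads with several matches were counted. The levels of mt-Co1, mt-Co2, mt-Co3 and mt-Atp6 are to that extent uncertain, and mt-Atp8 and mt-Cytb are not shown to be free of such copies.

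Before the results, the state of the table and of 1 library has to be given. Each library held 5433573 to 6693111 recovered reads, and a member rested on 1523 reads at the least (mt-Atp8 in shScram A) and 231735 at the most (mt-Co1 in shSLX4IP C). Slx4ip, the targeted gene, was listed at 0 in all 6 libraries, as was Actb, which every cell uses, so the hairpin could not be checked. Outside 4 chromosome segments and the mitochondrial genome the identifiers could not be read as the genes they name. Among the mitochondrial genes, the full identifier with its version was that of GENCODE M21 for 35 of 37 (mt-Atp8 differed in its version), and values ran from 351 to 191618 in the 13 protein genes and from 0 to 3667 in the 22 tRNAs. Of 16 marker genes of epithelial, mesenchymal, macrophage and endothelial cells only Col1a2 and Zeb1, both mesenchymal, could be read, so the cell type label could not be checked either. shScram A stood apart: 1 read was worth 1.46 in its column, against 0.796 to 0.976 in the others, and its values summed to 8.95e+06, against 5.28e+06 to 5.97e+06. With 6110599 recovered reads it had 8464 features above 0, against 10548 to 11611 in the others, a count that no size factor changes. Of the 22 mitochondrial tRNAs, 20 were highest in shScram A, and the part of that library's make-up in the results was not tested. Results are therefore also given as ratios within a library, which no size factor can move, and without shScram A.

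Most of the 6 messages were lower in shSLX4IP, and mt-Co1 was higher. Of the 6, 3 fell (mt-Cytb, mt-Co3 and mt-Atp6) and 1 rose (mt-Co1) at an adjusted p under 0.05 in limma, while mt-Co2 and mt-Atp8 did not pass. Over all 8127 features tested, 23% were called, 11.3% lower and 11.7% higher. The values of 5 members did not overlap between the groups, as for 53.5% of all features tested. The median log2 fold change was -0.78 over the 6 members and 0.25 over all features. In bulk RNA, fewer cells with a message and less of it per cell cannot be told apart.

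**Figure D1:**
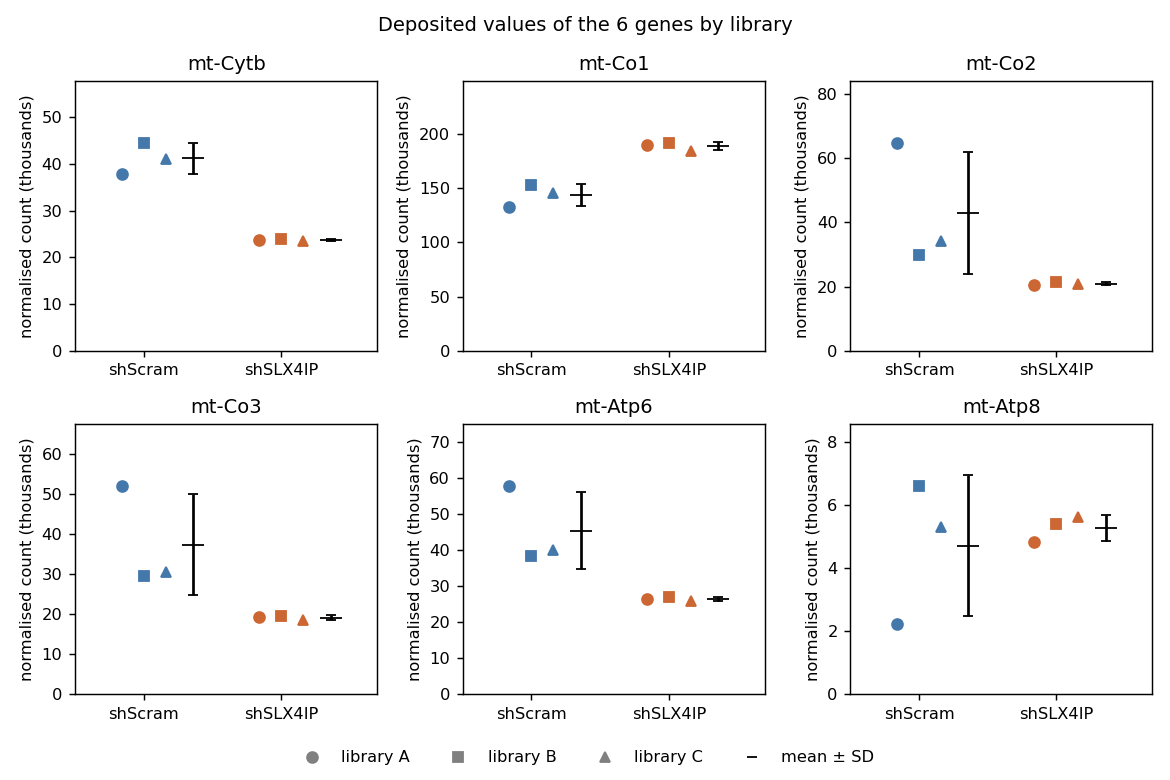
Deposited normalised count (divided by 1000, axis from 0) of each of the 6 genes in the 3 shScram (blue) and 3 shSLX4IP (orange) libraries, with circles for library A, squares for B and triangles for C, and the mean ± SD beside each group. mt-Cytb, mt-Co2, mt-Co3 and mt-Atp6 were lower in every shSLX4IP library, mt-Co1 was higher in every one, and mt-Atp8 overlapped between the groups.

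Complex III is represented by mt-Cytb (ENSMUSG00000064370.1), the cytochrome b that holds both quinone sites of the complex. Its normalised count was 37977, 44461 and 41187 in the shScram libraries, always in the order A, B, C, against 23746, 23953 and 23535 in the shSLX4IP libraries. The groups did not overlap on this scale, and here shScram A was the lowest of its group. The message fell by 0.79 on the log2(value + 1) scale (SE 0.10, limma adjusted p = 0.00512), from 41208 ± 3242 to 23745 ± 209 (mean ± SD, n = 3 each). As part of all values in a library, mt-Cytb took 0.424%, 0.779% and 0.689% in shScram and 0.45%, 0.452% and 0.442% in shSLX4IP. By that measure shScram A stood apart, below every shSLX4IP library, and the groups overlapped.

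In complex IV the 3 messages did not move together. mt-Co1 (ENSMUSG00000064351.1) encodes the catalytic subunit that holds the haem and copper centre where oxygen is reduced. It was at 133003, 153170 and 145225 in shScram and at 190452, 191618 and 184487 in shSLX4IP, with no overlap. That is a log2 fold change of 0.40 (SE 0.10, limma adjusted p = 0.0363). mt-Co2 (ENSMUSG00000064354.1), whose copper centre takes the electrons from cytochrome c, was at 64684, 29861 and 34355 in shScram and at 20377, 21365 and 20863 in shSLX4IP. The groups did not overlap, but shScram A was far above the other shScram libraries, and the log2 fold change of -0.96 (95% interval -1.70 to -0.22) did not pass (limma adjusted p = 0.0717). mt-Co3 (ENSMUSG00000064358.1), the core subunit without a metal centre, was at 51812, 29476 and 30506 in shScram and at 19113, 19569 and 18444 in shSLX4IP. It fell by 0.92 (SE 0.24, limma adjusted p = 0.0431), again with shScram A the highest library.

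Both genes of complex V encode subunits of the membrane part of the ATP synthase. mt-Atp6 (ENSMUSG00000064357.1), subunit a, which forms the proton path, was at 57643, 38422 and 40036 in shScram and at 26433, 26979 and 25718 in shSLX4IP. The groups did not overlap, and mt-Atp6 fell by 0.76 (SE 0.18, limma adjusted p = 0.0333). mt-Atp8 (ENSMUSG00000064356.1), a small subunit of the stator, was at 2230, 6576 and 5294 in shScram and at 4802, 5398 and 5608 in shSLX4IP. Here shScram A was the lowest of all libraries, where for its partner on the same message it was the highest. The groups overlapped, and the difference of mt-Atp8 was 0.30 with a 95% interval from -0.72 to 1.32 (limma adjusted p = 0.596).

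Without shScram A, 4 members were lower and 1 higher, where 19.4% of all features tested were called lower and 23.3% higher. In that fit mt-Co2 passed, with a log2 fold change of -0.62 (limma adjusted p = 0.00382), and that of mt-Atp8 turned to -0.17 (adjusted p = 0.326). The calls of mt-Cytb, mt-Co1, mt-Co3 and mt-Atp6 were lost without any 1 of the shSLX4IP libraries (10.4% to 10.6% of all features called, limma adjusted p from 0.0515 for mt-Cytb without shSLX4IP A to 0.274 for mt-Co1 without shSLX4IP B). Those of mt-Co1, mt-Co3 and mt-Atp6 were also lost without shScram C (limma adjusted p 0.152, 0.0787 and 0.0765, with 13.9% of features called), and that of mt-Co1 without shScram B (0.0657, with 23.9% called). Leaving out shScram A alone moved the log2 fold change of mt-Co2 by more than 1.5 times.

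The direction of 5 members held under each scaling tried, and the size did not. The median over all features tested was 0.25 with the deposited size factors, -0.0010 after quantile normalisation, 0.58 when each library was scaled to its total and 0.55 when it was scaled to the 13 mitochondrial protein genes. Relative to that median, mt-Co1 was higher by 0.15, 0.45, 0.16 and 0.15, in that order, and mt-Cytb stood at -1.04, -0.37, -1.03 and -1.04. The call of mt-Co1 was lost in 14 of the 21 other settings, among them scaling to the library total (limma adjusted p = 0.0683), and that of mt-Cytb in 7 (0.207 with the same scaling). The log2 fold change of mt-Atp8 lay above 0 under each of these 4 scalings and was called under none of them (limma adjusted p from 0.305 to 0.596).

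**Figure D2:**
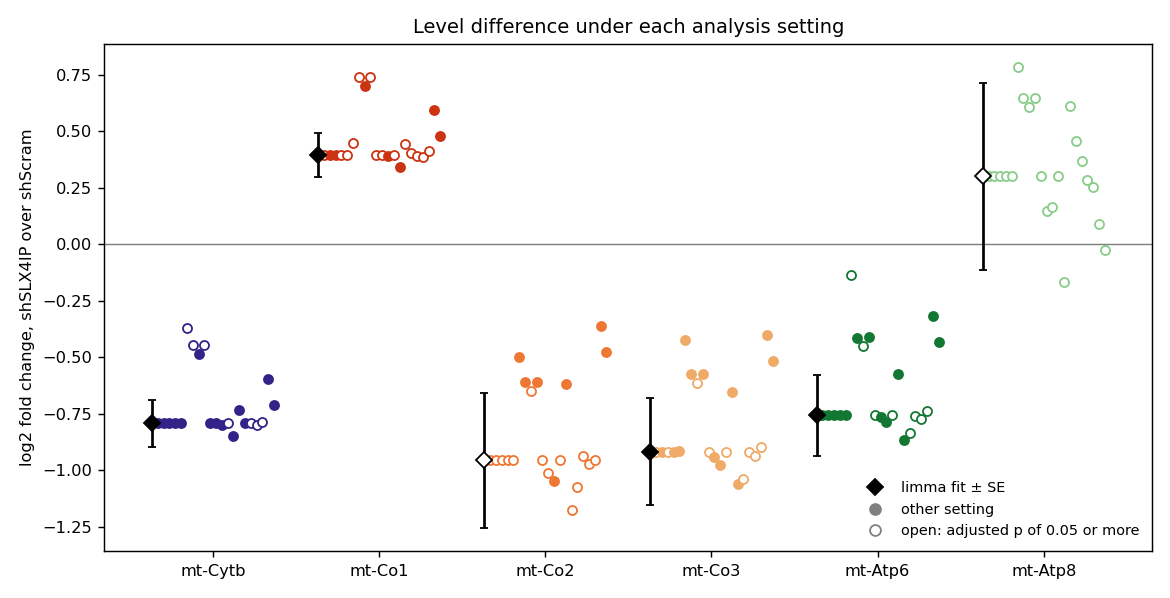
Log2 fold change (shSLX4IP over shScram) of each member in the limma fit (black diamond, ± SE) and in 21 other settings (circles), with open symbols for an adjusted p of 0.05 or more. mt-Cytb, mt-Co2, mt-Co3 and mt-Atp6 lie below 0 and mt-Co1 above 0 in each setting, while mt-Atp8 lies on both sides and is open throughout.

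As part of all deposited values of a library, the mitochondrial messages overlapped between the groups, but through shScram A alone. That sum has Actb at 0, so it may not hold all the nuclear RNA of the cells. The 13 protein genes took 5.10%, 7.31% and 6.77% of all values in shScram and 6.59%, 6.62% and 6.28% in shSLX4IP. shScram A lay below every shSLX4IP library, while shScram B and C lay above every one. Their summed normalised count was lower in shSLX4IP, at 344488 ± 8713 against 426154 ± 27236 (mean ± SD, n = 3 each). Whether the mitochondrial messages as a whole were lower thus depended on the scaling and on shScram A. mt-Co1 alone took 1.49%, 2.68% and 2.43% of all values in shScram and 3.61%, 3.61% and 3.46% in shSLX4IP, without overlap. The other 5 members together took 2.40%, 2.61% and 2.53% in shScram and 1.79%, 1.83% and 1.77% in shSLX4IP.

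The make-up of the mitochondrial messages shifted towards mt-Co1. As a share of the summed value of the 13 protein genes, mt-Co1 was at 29.1%, 36.7% and 35.9% in shScram, against 54.8%, 54.5% and 55.1% in shSLX4IP. Every shSLX4IP library was thus above every shScram library, and the shares within shSLX4IP were within 1 percentage point of each other. The mean share went from 33.9% ± 4.16 to 54.8% ± 0.291 (SD, n = 3 each; exact permutation test, 2-sided, p = 0.1). This p is the smallest that 3 libraries against 3 can give, so none of the 6 tests of shares and 5 of ratios could pass 0.05. With the values scaled to the 13 genes and fitted over all features, mt-Co1 rose by a log2 fold change of 0.70 (SE 0.12, limma adjusted p = 0.0114) and by 0.59 without shScram A (adjusted p = 0.00218). In the first of these fits 23.6% of features were called.

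**Figure D3:**
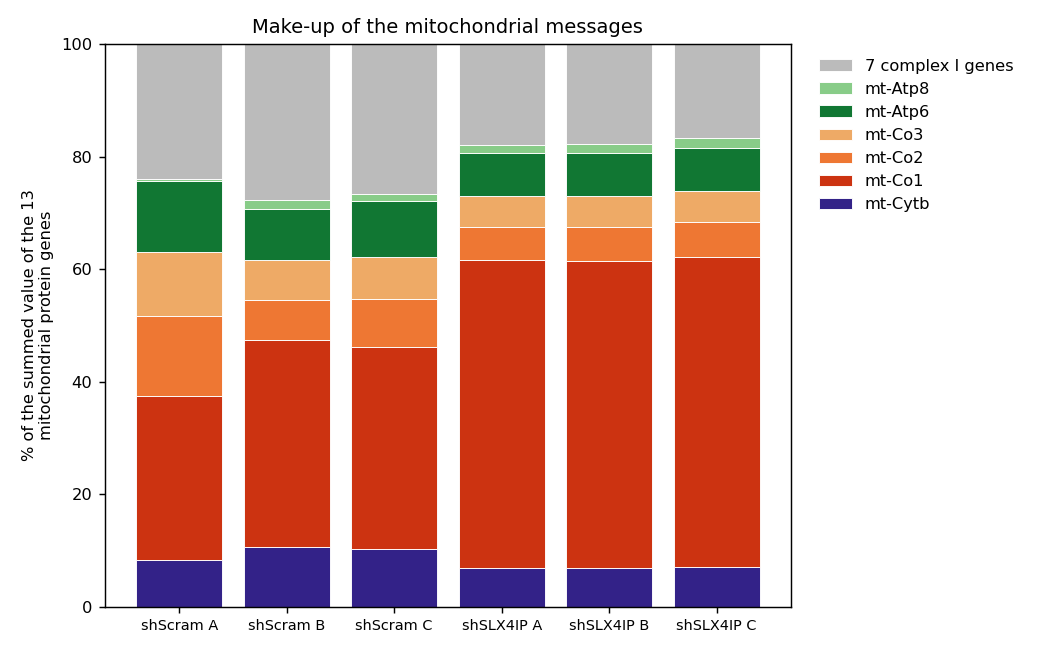
Stacked share (%) of each of the 6 genes and of the 7 complex I genes together in the summed value of the 13 mitochondrial protein genes, 1 bar per library. The share of mt-Co1 (red) is 29.1% to 36.7% in shScram and 54.5% to 55.1% in shSLX4IP.

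Shares sum to the whole, so a high share of mt-Co1 lowers the others, and a fall of the others raises that of mt-Co1. On the deposited values, the 12 other protein genes summed to 282354 ± 35869 in shScram and 155635 ± 4904 in shSLX4IP. mt-Co1 was at 143800 ± 10159 and 188852 ± 3825 (mean ± SD, n = 3 each). As part of all values, the 12 took 4.19% and 2.935% by their means, and mt-Co1 took 2.20% and 3.56%. mt-Cytb had a share of 8.32%, 10.6% and 10.2% in shScram and of 6.83%, 6.82% and 7.03% in shSLX4IP. mt-Atp6 was at 12.6%, 9.20% and 9.90% against 7.61%, 7.68% and 7.68%. For mt-Co2 the shares were 14.2%, 7.15% and 8.498% against 5.86%, 6.08% and 6.23%, and for mt-Co3 11.3%, 7.06% and 7.55% against 5.50%, 5.57% and 5.51%. None of these 4 genes overlapped between the groups (exact permutation p = 0.1 each). On the deposited values, 53.5% of all features tested did not overlap either. The share of mt-Atp8 was 0.488%, 1.58% and 1.31% against 1.38%, 1.54% and 1.68%, which overlapped (exact permutation p = 0.3). In the fit scaled to the 13 genes, mt-Cytb stayed lower (log2 fold change -0.49, limma adjusted p = 0.0413), and mt-Co2, mt-Co3 and mt-Atp6 did not pass (0.121, 0.0740 and 0.0699). Without shScram A the log2 ratio of the mean shares went from -0.71 to -0.37 for mt-Co2, from -0.65 to -0.40 for mt-Co3 and from 0.45 to 0.09 for mt-Atp8, which went to 0.77 without shScram B. In the fit scaled to the 13 genes without shScram A, mt-Cytb, mt-Co2, mt-Co3 and mt-Atp6 all passed (limma adjusted p from 0.00184 to 0.0320, with 44.8% of features called).

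With mt-Co1 left out of the sum, mt-Cytb, mt-Co2, mt-Co3 and mt-Atp6 overlapped between the groups with all 6 libraries, and for 3 of these 4 the overlap came from shScram A alone. Of the 12 remaining protein genes, mt-Cytb made up 11.7%, 16.8% and 15.9% in shScram and 15.1%, 15.0% and 15.7% in shSLX4IP. The shares of mt-Co2 (11.3% to 19.99% against 12.98% to 13.9%), mt-Co3 (11.2% to 16.01% against 12.2% to 12.3%) and mt-Atp6 (14.5% to 17.8% against 16.8% to 17.1%) overlapped as well. The exact permutation p of these 4 genes lay between 0.4 and 1. Without shScram A, mt-Cytb was lower in shSLX4IP without overlap (16.8% and 15.9% against 15.0% to 15.7%), while mt-Co3 (11.2% and 11.8% against 12.2% to 12.3%) and mt-Atp6 (14.5% and 15.5% against 16.8% to 17.1%) were higher without overlap. mt-Co2 still overlapped, at 11.3% and 13.3% against 12.98% to 13.9%. These differences between 2 and 3 libraries were not tested. mt-Atp8 was the exception, at 0.689%, 2.49% and 2.04% in shScram and 3.06%, 3.38% and 3.73% in shSLX4IP (exact permutation p = 0.1).

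The 7 complex I genes gave a denominator that holds no member. The 7 took 26.1% ± 1.93 of the 13 genes in shScram and 17.5% ± 0.673 in shSLX4IP. Of them, 4 fell in limma with none higher, where 11.3% of all features tested were lower and 11.7% higher. They did not move alike, with log2 fold changes from -2.42 to 0.84. The mean share of mt-Nd1 alone went from 9.64% to 4.06% of the 13 genes. A ratio to the sum of the 7 is thus not a ratio to each of them. Against this sum, mt-Co1 stood at 1.217, 1.33 and 1.35 in shScram and at 3.04, 3.07 and 3.29 in shSLX4IP, a ratio 2.42 times as high (exact permutation p = 0.1). mt-Cytb stood at 0.347, 0.385 and 0.382 against 0.380, 0.384 and 0.420, which overlapped (exact permutation p = 0.5). The ratio of mt-Co2 to complex I was 0.592, 0.258 and 0.319 in shScram and 0.326, 0.342 and 0.372 in shSLX4IP. That of mt-Co3 was 0.474, 0.255 and 0.283 against 0.306, 0.313 and 0.329, and that of mt-Atp6 was 0.527, 0.333 and 0.372 against 0.423, 0.432 and 0.459. These 3 genes overlapped only through shScram A, the highest library in each, and shScram B and C lay below every shSLX4IP library. Without shScram A the log2 ratio of means was 0.26 for mt-Co2, 0.23 for mt-Co3 and 0.31 for mt-Atp6, against -0.17, -0.09 and 0.09 with it, so for mt-Co2 and mt-Co3 that library set the direction. The ratio of mt-Atp8 to complex I was 0.0204, 0.0569 and 0.0492 against 0.0768, 0.0865 and 0.1001, without overlap.

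The steadiest contrast was that between mt-Co1 and mt-Cytb. Their ratio was 3.50, 3.45 and 3.53 in shScram and 8.02, 8.0 and 7.84 in shSLX4IP. shScram A lay within 0.1 of the other shScram libraries here, although it stood apart in most other measures. The ratio was 3.49 ± 0.0416 in shScram and 7.95 ± 0.0995 in shSLX4IP, or 2.28-fold higher (n = 3 each; exact permutation p = 0.1). On the log2 scale the difference was 1.19, and it was 1.178 to 1.198 with any 1 library left out.

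Within complex IV, mt-Co1 was higher against both partners, and the ratio of the partners overlapped between the groups. mt-Co1 over mt-Co2 was 2.06, 5.13 and 4.23 in shScram and 9.35, 8.97 and 8.84 in shSLX4IP, a log2 difference of 1.35 and of 0.96 without shScram A. mt-Co1 over mt-Co3 was 2.57, 5.20 and 4.76 in shScram and 9.96, 9.79 and 10.0 in shSLX4IP, a log2 difference of 1.31 and of 1.00 without shScram A. In both ratios shScram A was the lowest library and every shSLX4IP library lay above every shScram library. mt-Co2 over mt-Co3 was 1.25, 1.013 and 1.13 in shScram and 1.07, 1.09 and 1.13 in shSLX4IP, which overlapped (log2 difference -0.04, exact permutation p = 0.8).

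The shared message of complex V gave different ratios for its overlapping genes. mt-Atp8 over mt-Atp6 was 0.0387, 0.171 and 0.132 in shScram and 0.182, 0.200 and 0.218 in shSLX4IP. The groups did not overlap, and shScram A was far below the rest. The log2 difference was 1.06 with all libraries and 0.41 without shScram A, so its size rested largely on that library (exact permutation p = 0.1 with all). mt-Atp8 has 161 bases outside the overlap, and the sources used here do not say how reads in the overlap were assigned.

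**Figure D4:**
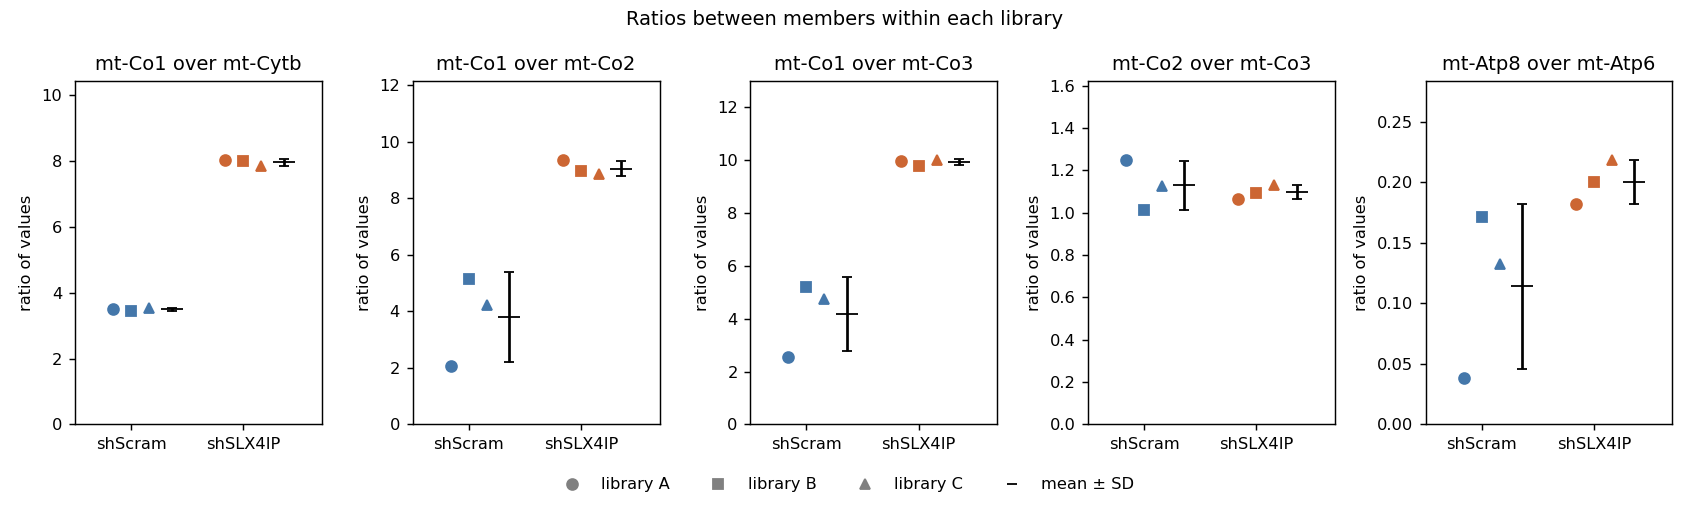
Ratio of deposited values within each library (linear axes from 0) for 5 pairs of members, with circles for library A, squares for B and triangles for C, and the mean ± SD beside each group (blue shScram, orange shSLX4IP). mt-Co1 over mt-Cytb is 3.45 to 3.53 in shScram and 7.84 to 8.02 in shSLX4IP, while mt-Co2 over mt-Co3 overlaps between the groups.

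Levels of different genes were compared per kilobase of gene length. mt-Co1 was first of the 13 protein genes in both groups, at 93074 ± 6575 normalised counts per kb in shScram and 122234 ± 2476 in shSLX4IP (mean ± SD, n = 3 each). Among the 6 members in shScram it was followed by mt-Atp6 at 66618 ± 15657, mt-Co2 at 62817 ± 27692, mt-Co3 at 47532 ± 16083, mt-Cytb at 36021 ± 2834 and mt-Atp8 at 23040 ± 10947. In that order the ranges of mt-Atp6 and mt-Co2, of mt-Co2 and mt-Co3, and of mt-Co3 and mt-Cytb overlapped, and shScram A alone had mt-Co2 above mt-Co1, at 94567 against 86086 per kb. In shSLX4IP the order of the 6 per kb was mt-Co1, mt-Atp6 at 38732 ± 928, mt-Co2 at 30509 ± 722, mt-Atp8 at 25830 ± 2048, mt-Co3 at 24288 ± 722 and mt-Cytb at 20756 ± 183. Only the ranges of mt-Atp8 and mt-Co3 overlapped there. mt-Atp8 was thus last of the 6 in shScram and above mt-Co3 and mt-Cytb by its mean in shSLX4IP. These ranks use annotated lengths. The overlap of mt-Atp8 with mt-Atp6 and the nuclear copies of mt-Co1, mt-Co2, mt-Co3 and mt-Atp6 make comparisons between members uncertain.

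**Figure D5:**
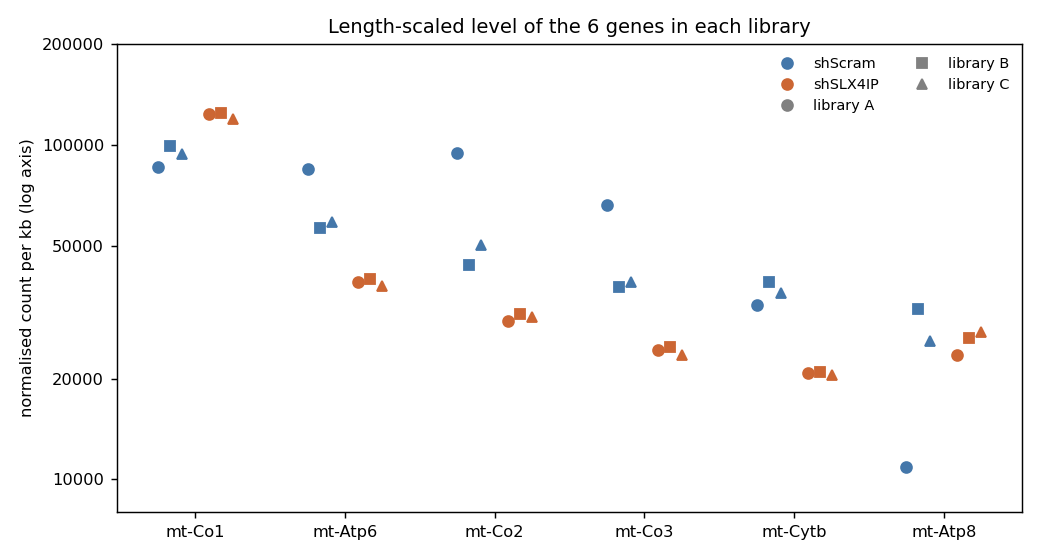
Normalised count per kb of gene length (log axis) of the 6 genes in each library, ordered by the shScram mean, blue for shScram and orange for shSLX4IP, with circles, squares and triangles for libraries A, B and C. mt-Co1 is highest in 5 of the 6 libraries, and shScram A stands apart upwards in mt-Co2, mt-Co3 and mt-Atp6 and downwards in mt-Atp8.

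Among the 462 tested features that can be read by name, the nearest patterns over the 6 libraries differed between members (Pearson's r of log2 values, n = 6). Both the difference between the groups and that of shScram A enter each r. mt-Co1 was most like Rad54b (r = 0.998) and Fbxo10 (r = 0.9975), and mt-Cytb was most like Sema5a (r = 0.9991) and Gm3289 (r = 0.9974). Gm3289 was low, at 14.6, 57.9 and 24.6 in shScram and at 0 in every shSLX4IP library. mt-Co2 was nearest to Smu1 (r = 0.9998) and Bag1 (r = 0.9986), mt-Co3 to Sub1 (r = 0.9987) and its neighbour mt-Atp6 (r = 0.9978), and mt-Atp6 to Creb3 (r = 0.9989) and Gm12350 (r = 0.9981). mt-Atp8 was nearest to mt-Nd4l (r = 0.9829), the other short gene whose frame overlaps that of a longer partner, and then to Ugcg (r = 0.9761). mt-Nd4l was at 351, 3573 and 2401 in shScram and at 2714, 2566 and 2513 in shSLX4IP, so it too was lowest in shScram A.

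Of 76 symbols of nuclear subunits of complexes III to V and factors of mitochondrial RNA, 71 had a row. Only 3 could be read by name and were tested, with 1 lower and 0 higher (limma). Over all features tested, 11.3% were lower and 11.7% higher. Cox6c, a subunit of complex IV, was at 8256, 2909 and 3553 in shScram and at 34.4, 33.2 and 37.4 in shSLX4IP (log2 fold change -6.94, limma adjusted p = 0.000506). Its exons overlap Vps13b on the other strand, and it has a related gene, Cox6c2, so its value is uncertain. Ndufa4, also found with complex IV, was at 23062, 6689 and 8326 against 5146, 5319 and 5256 (limma adjusted p = 0.156). Mtpap, the mitochondrial poly(A) polymerase, was at 1905, 1666 and 1846 against 1581, 1343 and 1417 and did not pass (log2 fold change -0.32, limma adjusted p = 0.151).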

How the data were processed

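RNA of 3 shScram and 3 shSLX4IP libraries was measured by poly(A) RNA sequencing of D2.OR cells. The deposited table holds normalised counts per gene, used here as a signal; per the submitters' processing notes fastp 0.19.5, STAR 2.7.7, StringTie 2.1.7, DESeq2 1.22.1 and GRCm38 were used, and a rule for reads with several matches is not named there. The values were whole multiples of a step for each library, which gave whole reads for 99.98% to 100.0% of values (tolerance 0.1) and 5433573 to 6693111 reads per library. No column of the table was left unused (0 such columns). The column letters A, B and C are not tied to the replicate numbers of the labels.

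Features with a mean of at least 10 (8127 of 53647) were fitted as log2(value + 1) with limma 3.58.1 (R 4.3.3, intensity trend, 2-sided, Benjamini-Hochberg over all features tested, threshold 0.05). A fold change on this scale understates that of low features. Shares and ratios were compared with exact permutation tests over libraries (scipy 1.17.1). edgeR 4.0.16 and DESeq2 1.42.0 on recovered reads were alternatives, as were other pseudocounts, filters and scalings, a block by column letter and leaving out each library. The fit was tested on simulated data. Same-letter libraries did not deviate together (r of -0.0213, -0.00929 and -0.000725), so the letters were not taken as pairs.

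Nuclear identifiers were read by name only in 4 chromosome segments, where features with a mean of at least 1000 (score 3, others -1) summed to a score of at least 30; no other segment exceeded 18. Named genes are the 6 members, the 2 features most like each, and members of a nuclear list and of a marker list that could be read; the tRNAs next to members were to be given as ranges, and mt-Ts1 and mt-Te were singled out after their values were seen. Slx4ip and Actb are named as checks, and genes that overlap or nearly copy a named gene (the Gm copies, Vps13b and Cox6c2) as limits. mt-Nd1 is named as a limit of the complex I sum, after its values were seen. The members and lists were chosen with earlier results of these data known. Scaling to all values other than mitochondrial, the scalings and other denominators without shScram A and the share without mt-Co1 were chosen after seeing the data.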

Additional observations from a re-analysis of the deposited data

How the results depend on the processing

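The log2 fold change of 5 members kept its direction in the 21 other settings; that of mt-Atp8 did not. With a library left out, it ran from -0.85 to -0.74 for mt-Cytb, 0.34 to 0.44 for mt-Co1 and -1.18 to -0.62 for mt-Co2. It ran from -1.06 to -0.66 for mt-Co3, -0.87 to -0.57 for mt-Atp6 and -0.17 to 0.61 for mt-Atp8. In these fits 0 to 4 members were called lower, where 5.04% to 19.4% of all features tested were. From 0 to 1 were called higher, where 5.33% to 23.3% of all features tested were. mt-Cytb lost its call with quantile normalisation (-0.37), total scaling (-0.45) and scaling to the values that are not mitochondrial (-0.45). mt-Co1 lost it with a pseudocount of 0.1 (0.40), a mean of at least 50 (0.40), TMM (0.40), quantile normalisation (0.45), total scaling (0.74), non-mitochondrial scaling (0.74), limma without the trend (0.40) and edgeR (0.40), so that 0 members were called higher in each of these, where 8.76% to 13.8% of all features were (at an unadjusted p under 0.05, 1 higher except with quantile normalisation and without the trend, with 0). mt-Co2 passed with quantile normalisation (-0.50), total scaling (-0.61), non-mitochondrial scaling (-0.61), DESeq2 (-1.05) and, without shScram A, with scaling to the 13 genes (-0.36) or to the total (-0.48); mt-Atp8 stood at -0.027 in the last. mt-Co3 lost its call with a pseudocount of 0.1 (-0.92), no filter (-0.92), scaling to the 13 genes (-0.61) and no trend (-0.92), and mt-Atp6 with quantile normalisation (-0.13), scaling to the 13 genes (-0.45) and no trend (-0.76). Only 1 member was called lower with scaling to the 13 genes (8.08% of all features tested called lower) or without the trend (9.3%). The cause of these changes was not tested.

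With the replicate block by column letter the fold changes were -0.79 (mt-Cytb, limma adjusted p = 0.0566), 0.40 (mt-Co1, 0.151), -0.92 (mt-Co3, 0.0934) and -0.76 (mt-Atp6, 0.0933), with 0 members called in either direction (limma, 8.29% of features called) and, at an unadjusted p under 0.05, 4 lower and 1 higher. The labels do not say whether libraries with the same letter were handled together.

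Against complex I the log2 ratio of mean shares turned to 0.086 for mt-Cytb and 0.093 for mt-Atp6, and without mt-Co1 in the sum to 0.043 and 0.089. With shScram A left out as well, it was above 0 against complex I for mt-Cytb (0.040), mt-Co2 (0.264), mt-Co3 (0.232) and mt-Atp6 (0.315), and without mt-Co1 in the sum for mt-Co2 (0.128), mt-Co3 (0.094) and mt-Atp6 (0.177), but not for mt-Cytb (-0.10). mt-Co2 over mt-Co3 ran from -0.11 to 0.037 with a library left out, the last without shScram A.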

Other observations

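The tRNA genes next to the members were measured in the same table, although a poly(A) library is not made to hold tRNAs. mt-Ts1, on the other strand at the end of mt-Co1, was at 3667, 845 and 1112 in the shScram libraries A, B and C, against 978, 1040 and 835 in shSLX4IP. mt-Te, next to mt-Cytb, was at 1179, 316 and 355 in shScram and at 143, 170 and 94.7 in shSLX4IP, where every library was below every shScram library. The other 5 neighbouring tRNA genes ran from 1.59 to 234. All 7 were highest in shScram A. The 2 ribosomal RNAs summed to 12416, 9237 and 8770 in shScram and to 6256, 6750 and 6269 in shSLX4IP, again with shScram A highest.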
